A study of Mus musculus with 12 samples.

Results

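The 10 genes described here encode receptors of itch and unmyelinated skin neurons: Mrgprd, Mrgpra3, Mrgprx1, Mrgprb4, Mrgprb5, Mrgpre, Il31ra, Cysltr2, Lpar3 and Lpar5. They were taken by symbol from a table of 44345 genes. All 10 passed the filter on low values (0.5 or more in 3 or more of 12 libraries), which left 15603 genes for testing. RNA came from L4 to L6 dorsal root ganglia (DRG), which hold the cell bodies of sensory neurons, including those with axons in the sciatic nerve. All mice were C57BL/6, 6 to 8 weeks old, and were gavaged once a day over 10 days. The vehicle group got phosphate-buffered saline (PBS) and had intact nerves. The IPA group got indole-3-propionic acid, a tryptophan metabolite of gut bacteria, at 20 mg/kg in PBS and also had intact nerves. The vehicle crush and IPA crush groups had the same gavage, then a sciatic nerve crush, and were sampled 3 days later. IPA was continued over those days in the IPA crush mice, and the labels do not make clear whether vehicle was continued in the vehicle crush mice. Each group had 3 libraries, and each library held the pooled DRG of 2 mice. The labels give neither the sex of the mice nor a batch.

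Mrgpr genes encode G protein-coupled receptors of small sensory neurons, many of which respond to peptides or small molecules that cause itch or pain. Mrgprd, a receptor for beta-alanine, is the defining receptor of nonpeptidergic neurons that end in the epidermis. Mrgpra3, a receptor for chloroquine, and Mrgprx1, a receptor for itch peptides, define another class of itch neurons, and Il31ra and Cysltr2 mark a further class that also makes the peptides Nppb and Sst. Lpar3 and Lpar5 are receptors for lysophosphatidic acid (LPA), a lipid that causes itch and pain.

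Levels are the deposited values, which behave as library-scaled counts (CPM-like) with no gene length divided out, and differences are on the log2(value + 0.5) scale of a limma-trend model with its standard error (SE). A gene was called when its Benjamini-Hochberg adjusted p over the 15603 genes was under 0.05. Libraries held 40938034 to 62501969 recovered reads, so that a value of 0.0130 to 0.0199, by library, stands for 1 read. The 10 receptors rested on 76 reads (Mrgprb5 in an IPA crush library) to 10473 reads (Mrgprd in an IPA library). Neuronal and satellite glial markers of DRG were present in every library: the 9 neuronal markers summed to 8751 to 11673 and the 8 satellite glial markers to 2413 to 3340. Vehicle crush replicate 1 stood apart from its group. Its counts differed from the other two with a chi-square per degree of freedom of 30.8 and 28.6, against 6.22 between those, and it was the highest of its group in 10 of 10 receptors. IPA crush replicate 3 also differed from its group (26.8 and 13.2, against 7.93 between the other two), as did vehicle replicate 3 (11.5 and 18.8, against 5.04), and each was the lowest of its group in 6 of 10 receptors. Values without a library are given where they change a call.

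Of the 10 receptors, 6 lie on mouse chromosome 7. Mrgpra3, Mrgprx1, Mrgprb5 and Mrgprb4 lie on the minus strand within 610.3 kb, and Mrgprd lies far from that cluster, 1.53 Mb beyond Mrgpre. Promoter windows of 250 bases before the RefSeq start (build GRCm38.p6) were found for 9 of the 10; Mrgpra3 has none in the table used. The 4 windows that follow are shown because they belong to the receptors with the highest level per kilobase (Mrgprd), the largest fall in vehicle mice on the log2(value + 0.5) scale (Mrgprx1), the larger rise (Il31ra) and the only match to a searched motif (Lpar5). Capitals mark the motif TGTGGT, the core bound by RUNX factors. The windows are chr7:145314585-145314834 (plus strand), chr7:48027598-48027847 (minus strand), chr13:112580663-112580912 (minus strand) and chr6:125067670-125067919 (plus strand), in that order, and are printed along the gene's own strand. That of Il31ra lies before a RefSeq start inside the span GENCODE gives the gene.

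Mrgprd: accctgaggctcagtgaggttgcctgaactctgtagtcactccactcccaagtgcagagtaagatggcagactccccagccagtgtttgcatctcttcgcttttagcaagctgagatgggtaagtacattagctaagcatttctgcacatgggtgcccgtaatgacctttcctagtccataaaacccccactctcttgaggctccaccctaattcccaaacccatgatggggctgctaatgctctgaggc

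Mrgprx1: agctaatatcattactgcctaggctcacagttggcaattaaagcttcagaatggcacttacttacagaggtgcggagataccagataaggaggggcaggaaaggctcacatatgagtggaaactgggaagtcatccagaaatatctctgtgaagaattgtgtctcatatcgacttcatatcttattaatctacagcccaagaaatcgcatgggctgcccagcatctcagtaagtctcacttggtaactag

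Il31ra: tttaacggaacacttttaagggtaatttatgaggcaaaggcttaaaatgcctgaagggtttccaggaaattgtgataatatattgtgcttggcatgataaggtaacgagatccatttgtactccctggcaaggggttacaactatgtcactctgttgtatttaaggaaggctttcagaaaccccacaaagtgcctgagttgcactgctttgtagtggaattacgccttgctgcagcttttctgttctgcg

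Lpar5: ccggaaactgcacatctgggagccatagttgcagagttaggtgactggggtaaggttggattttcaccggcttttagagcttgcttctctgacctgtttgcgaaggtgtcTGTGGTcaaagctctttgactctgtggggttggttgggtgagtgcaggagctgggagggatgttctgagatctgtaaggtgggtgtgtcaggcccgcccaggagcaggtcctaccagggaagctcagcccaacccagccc

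Searched on both strands, TGTGGT was in the window of 1 of the 9 receptors, Lpar5, 140 bases before its start, and in 14.0% of 32851 RefSeq promoter windows of the same length. RefSeq gives Lpar5 a further start, whose window overlaps an exon of the gene, is not printed and holds 2 more matches, 221 and 41 bases before that start. The AP-1 motif TGANTCA was in 0 of 9 against 6.75% of all windows, and the CRE motif TGACGTCA in 0 of 9 against 1.55%. No match says only that these letters are not in these windows. The receptors' windows held 38.4% (Mrgprb4 and Mrgprb5) to 69.6% (Lpar3) G and C, against a median of 52.4% over all windows.

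Mrgprb4 and Mrgprb5 are neighbours, and 82.4% of the 250 bases before their starts matched position by position, against 19.2% to 28.8% for the other 35 pairs of receptors. No gaps were allowed, so a shifted start or an inserted base could hide shared sequence in the other pairs. The parts of their windows that hold no annotated exon are shown because Mrgprb4 and Mrgprb5 matched at more positions than any other pair compared. These parts run from 250 to 111 bases before the start, at chr7:48199289-48199428 for Mrgprb4 and chr7:48169096-48169235 for Mrgprb5, both on the minus strand. Capitals mark the positions that differ, and 110 of 140 positions (78.6%) were the same.

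Mrgprb4: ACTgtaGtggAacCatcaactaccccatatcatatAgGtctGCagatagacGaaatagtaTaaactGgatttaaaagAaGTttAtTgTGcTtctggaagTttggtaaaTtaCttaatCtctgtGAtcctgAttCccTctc

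Mrgprb5: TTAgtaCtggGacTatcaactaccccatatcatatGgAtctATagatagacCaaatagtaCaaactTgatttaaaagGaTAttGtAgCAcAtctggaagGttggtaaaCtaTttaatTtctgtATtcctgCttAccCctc

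The first comparison asked how these receptors differed after nerve crush in vehicle mice. After crush, 7 of the 10 were lower (Mrgprd, Mrgpra3, Mrgprx1, Mrgprb4, Mrgprb5, Lpar3 and Lpar5), 2 were higher (Il31ra and Mrgpre) and Cysltr2 was not called. Over all tested genes, 48.0% were called in this comparison, 24.4% lower and 23.6% higher. The crushed and intact groups did not overlap for the 9 called receptors, as for 51.4% of all tested genes. The median log2 change of the 10 was -0.67, and that of all tested genes was -0.00. In IPA mice the same 7 receptors were lower, the same 2 were higher and Cysltr2 was again not called, with a median of -0.63 against -0.02 over all tested genes. There 43.6% of tested genes were called, 22.5% lower and 21.2% higher, and 58.0% had groups that did not overlap, as the 9 receptors had. DRG are bulk tissue, so fewer cells of a type and less RNA per cell cannot be told apart. As the groups are described, crush mice also had an operation and the 3 days after it, and IPA crush mice had IPA over those days. These cannot be told apart from the crush itself.

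**Figure D1:**
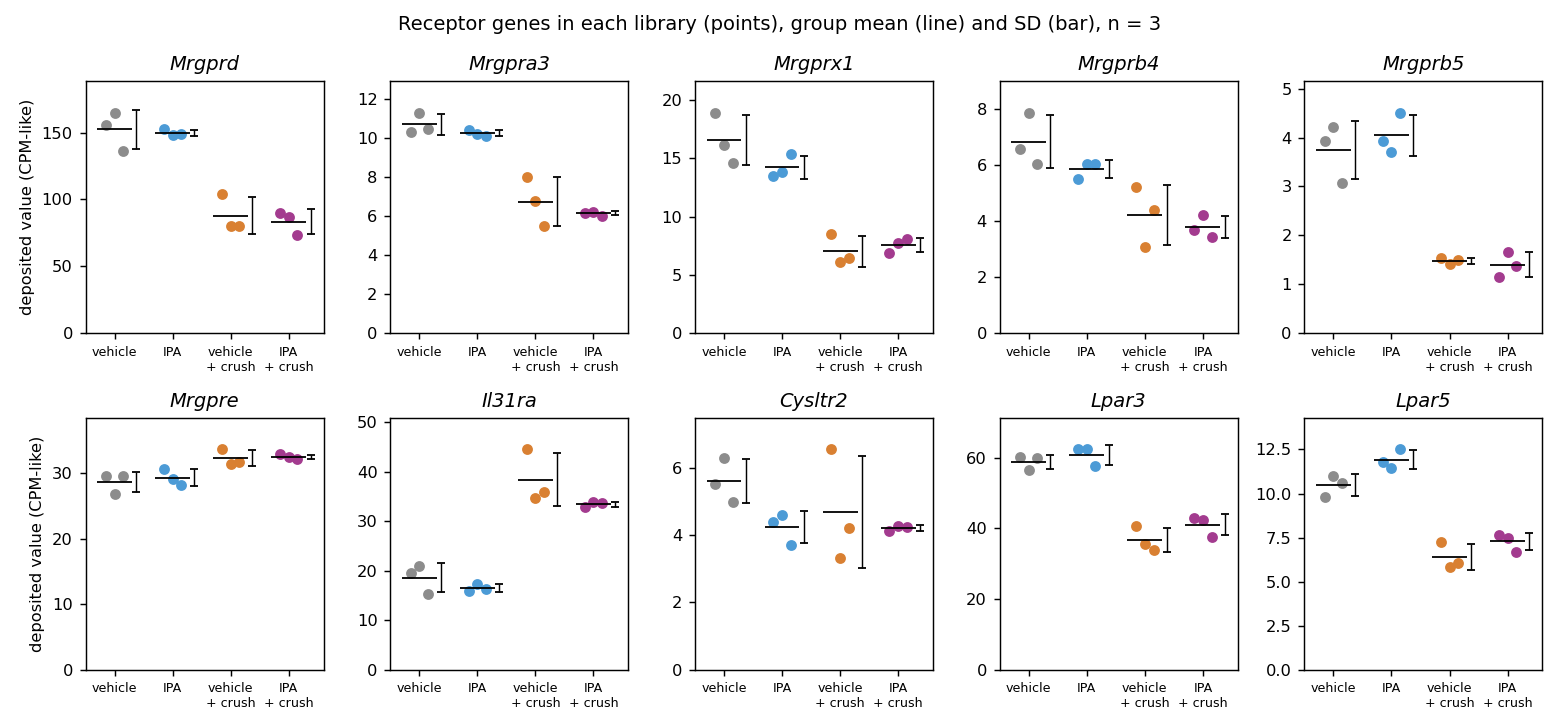
Deposited value (CPM-like, linear axis from 0) of each receptor gene in the 12 libraries, by group. Points are libraries, the line is the group mean and the bar is the SD (n = 3). In 7 panels the crush libraries lie below the intact ones, and in the Il31ra and Mrgpre panels they lie above.

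Mrgprd (ENSMUSG00000051207, chromosome 7, 145314835 to 145324086) had the highest level of the 10 per kilobase of transcript. It was 156, 165 and 137 in the 3 vehicle libraries and 104, 79.9 and 80.0 in the 3 vehicle crush libraries. In the IPA libraries it was 153, 148 and 149, and in the IPA crush libraries 90.0, 87.1 and 73.0. Every crush library was below every intact library. After crush the mean of Mrgprd was 57.6% of its intact mean in vehicle mice and 55.7% in IPA mice. The log2 changes were -0.80 ± 0.10 (SE, limma adjusted p = 2.06e-05) and -0.85 ± 0.10 (adjusted p = 1.36e-05), with 3 libraries per group.

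Mrgpra3 (ENSMUSG00000078698, chromosome 7, 47588950 to 47601372) is the chloroquine receptor of itch neurons. It was 10.3, 11.3 and 10.5 in vehicle and 7.98, 6.75 and 5.47 in vehicle crush libraries. It was 10.4, 10.2 and 10.1 in IPA and 6.17, 6.22 and 6.02 in IPA crush libraries. The 6 intact libraries lay within a narrow range above all crush libraries, and the vehicle crush libraries were the most spread. The log2 change was -0.64 ± 0.10 (SE) in vehicle mice and -0.69 ± 0.10 in IPA mice (limma adjusted p = 0.000142 and 8.49e-05).

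Mrgprx1, also called MrgprC11 in mice (ENSMUSG00000070552, chromosome 7, 48020971 to 48027597), had the largest fall in vehicle mice on the log2(value + 0.5) scale, though by ratio of means Mrgprb5 fell further. It was 18.9, 16.2 and 14.6 in vehicle and 8.51, 6.06 and 6.42 in vehicle crush libraries. In IPA libraries it was 13.5, 13.8 and 15.4, and in IPA crush libraries 6.84, 7.76 and 8.05. The lowest intact library was well above the highest crush library. Its mean after crush was 42.2% of the intact mean under vehicle and 53.1% under IPA. The log2 changes were -1.19 ± 0.12 and -0.87 ± 0.12 (SE, limma adjusted p = 2.22e-06 and 5.09e-05). These changes differed by 0.32 ± 0.17, a difference that did not pass the test of the interaction between crush and treatment (limma adjusted p = 1.00).

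Mrgprb4, a marker of skin neurons that respond to gentle stroking (ENSMUSG00000070550, chromosome 7, 48198070 to 48199288), was 6.57, 7.89 and 6.06 in vehicle and 5.21, 3.07 and 4.40 in vehicle crush libraries. It was 5.50, 6.04 and 6.06 in IPA and 3.70, 4.21 and 3.44 in IPA crush libraries. The groups did not overlap within either treatment, and the highest crush library, vehicle crush replicate 1, came close to the lowest IPA library. It fell by 0.65 ± 0.15 on the log2 scale under vehicle and by 0.57 ± 0.15 under IPA (SE, limma adjusted p = 0.00224 and 0.00592).

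Mrgprb5 (ENSMUSG00000070551, chromosome 7, 48167983 to 48169019), the neighbour that shares promoter sequence with Mrgprb4, was 3.93, 4.21 and 3.08 in vehicle and 1.53, 1.42 and 1.49 in vehicle crush libraries. In IPA libraries it was 3.92, 3.70 and 4.51, and in IPA crush libraries 1.15, 1.66 and 1.38. After crush its mean was 39.6% of the intact mean under vehicle and 34.5% under IPA, the lowest such shares of the 10. The log2 changes, which understate the change of a gene this low, were -1.09 ± 0.12 and -1.27 ± 0.12 (SE, limma adjusted p = 7.28e-06 and 2.02e-06). Those of Mrgprb4 and Mrgprb5 were not tested against each other.

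Mrgpre, an Mrgpr with no settled ligand (ENSMUSG00000048965, chromosome 7, 143778363 to 143784500), went the other way by a small amount. It was 29.5, 26.8 and 29.5 in vehicle and 33.6, 31.4 and 31.7 in vehicle crush libraries. It was 30.7, 29.0 and 28.2 in IPA and 32.8, 32.4 and 32.1 in IPA crush libraries. Crush libraries were above intact ones in both treatments, by 0.17 ± 0.05 and 0.15 ± 0.05 on the log2 scale (SE, limma adjusted p = 0.0202 and 0.0449). Under vehicle Mrgpre was not called once vehicle replicate 2 was left out (0.12, adjusted p = 0.0990), nor without vehicle crush replicate 1 (0.14, adjusted p = 0.0518) nor with only the 6 libraries compared (0.17, adjusted p = 0.0680). Under IPA its call was lost with no filter (adjusted p = 0.0512) and in 7 of 12 fits that left out a library, with log2 changes of 0.12 to 0.15. Those fits were without vehicle 1 (adjusted p = 0.0542), IPA 2 (0.115), IPA 3 (0.159), vehicle crush 3 (0.0556), IPA crush 1 (0.109), IPA crush 2 (0.0980) or IPA crush 3 (0.0632).

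Il31ra, the chain of the interleukin-31 receptor that binds the cytokine (ENSMUSG00000050377, chromosome 13, 112519898 to 112594360), rose after crush. It was 19.5, 20.9 and 15.3 in vehicle and 44.6, 34.6 and 36.0 in vehicle crush libraries. In IPA libraries it was 15.9, 17.4 and 16.3, and in IPA crush libraries 32.9, 33.9 and 33.7. Every crush library was above every intact library. The mean was 2.07 times the intact mean under vehicle and 2.03 times under IPA, and the log2 changes were 1.03 ± 0.11 and 1.00 ± 0.11 (SE, limma adjusted p = 2.87e-06 and 4.46e-06). Without vehicle crush replicate 1, its highest library, the change under vehicle was 0.92 ± 0.10. The gene overlaps the processed pseudogene Gm3226 on the same strand, and 0% of the 75-base stretches of its longest transcript occur in a transcript of another gene.

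Cysltr2, a receptor for cysteinyl leukotrienes (ENSMUSG00000033470, chromosome 14, 73025603 to 73049114), was 5.51, 6.28 and 4.98 in vehicle and 6.54, 3.30 and 4.20 in vehicle crush libraries. In IPA libraries it was 4.38, 4.60 and 3.70, and in IPA crush libraries 4.11, 4.28 and 4.24. Crush and intact libraries overlapped in both treatments. The log2 change was -0.28 ± 0.17 under vehicle (95% interval -0.64 to 0.09, limma adjusted p = 0.201) and -0.00 ± 0.17 under IPA (95% interval -0.37 to 0.37, adjusted p = 0.995). The result under vehicle rested on vehicle crush replicate 1, the highest of all 12 libraries: without it Cysltr2 was lower after crush (-0.52 ± 0.12, adjusted p = 0.00237), from a mean of 5.59 to 3.75 over the other 2 libraries.

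Lpar3 (ENSMUSG00000036832, chromosome 3, 146220963 to 146286186) came next to Mrgprd in level per kilobase of transcript. It was 60.1, 56.5 and 59.9 in vehicle and 40.6, 35.7 and 33.9 in vehicle crush libraries. It was 62.4, 62.4 and 57.6 in IPA and 43.1, 42.5 and 37.7 in IPA crush libraries. All crush libraries were below all intact libraries. The log2 changes were -0.68 ± 0.07 under vehicle and -0.56 ± 0.07 under IPA (SE, limma adjusted p = 2.97e-06 and 2.03e-05).

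Lpar5 (ENSMUSG00000067714, chromosome 6, 125067920 to 125082472) was 9.79, 11.0 and 10.6 in vehicle and 7.22, 5.85 and 6.07 in vehicle crush libraries. In IPA libraries it was 11.8, 11.5 and 12.5, and in IPA crush libraries 7.65, 7.48 and 6.71. It too was below every intact library in every crush library. The log2 change was -0.68 ± 0.09 in each treatment (SE, limma adjusted p = 2.2e-05 under vehicle and 2.62e-05 under IPA).

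**Figure D2:**
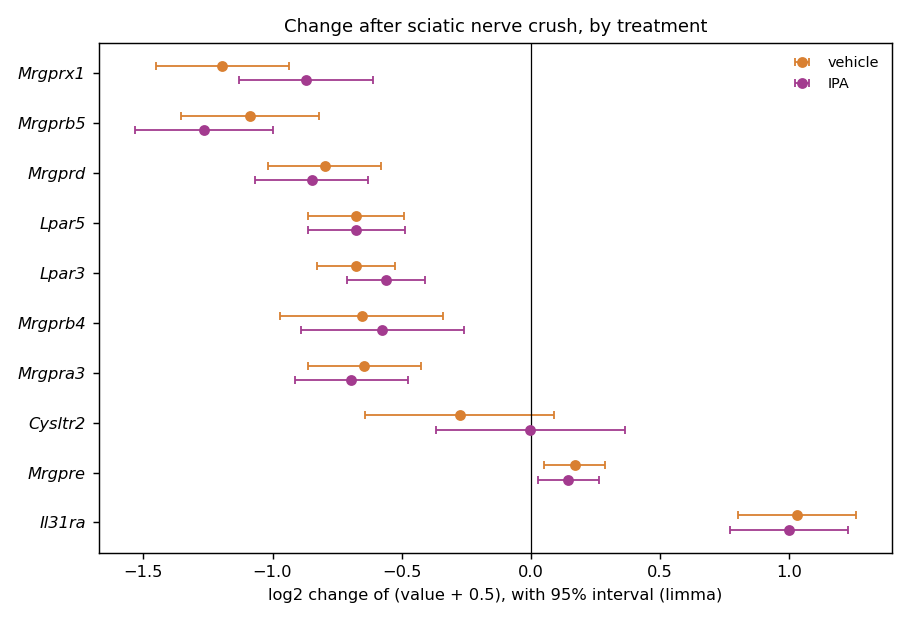
Log2 change of (value + 0.5) after crush for each receptor, crush minus intact, under vehicle (orange) and IPA (purple). Points are limma estimates and bars their 95% intervals (3 libraries per group). The intervals of 7 receptors lie below 0 and those of Il31ra and Mrgpre above 0, while those of Cysltr2 include 0.

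Mrgprd, Mrgpra3 and Il31ra, each from a different neuron class, were compared within libraries as log2 ratios of (value + 0.5). An exact permutation test, two-sided, permuted the crush labels within each treatment (400 arrangements, smallest possible p = 0.005), and p-values were adjusted over the 3 pairs. The ratio of Mrgprd to Il31ra changed by -1.84 after crush and that of Mrgpra3 to Il31ra by -1.68, both with the smallest p that the exact permutation test can give (0.005, adjusted p = 0.0075). Mrgprd and Mrgpra3 were lower in every crush library than in every intact one, and Il31ra was higher. Both ratios therefore had to separate fully, so these p-values only restate the changes of the single genes. Over all 12 libraries, the Mrgprd to Il31ra ratio was 1.11 to 1.44 in crush and 2.95 to 3.22 in intact libraries, with no overlap. The Mrgpra3 to Il31ra ratio was -2.61 to -2.28 in crush and -0.89 to -0.53 in intact libraries. The ratio of Mrgprd to Mrgpra3 changed by only -0.15 (exact permutation p = 0.035, adjusted p = 0.035), and its crush libraries (3.47 to 3.76) overlapped the intact ones (3.65 to 3.85). That small difference was not called with a pseudocount of 0.1 (-0.12, exact permutation adjusted p = 0.06). It was also lost in 8 of the 12 tests that left out a library: vehicle 1 or 2, any IPA library, vehicle crush 1 or 2, or IPA crush 3 (-0.16 to -0.11).

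Levels can be compared between genes only per length, here the deposited value per kilobase of the longest GENCODE M21 transcript. On that scale vehicle libraries held 48.5 ± 4.61 of Mrgprd (SD, n = 3), 23.9 ± 0.83 of Lpar3 and 14.0 ± 1.84 of Mrgprx1, followed by 8.26 ± 0.41 of Mrgpra3. Mrgpre (7.61) and Lpar5 (7.18) did not differ beyond their spread, nor did Mrgprb4 (5.61) and Il31ra (5.05), nor Mrgprb5 (3.61) and Cysltr2 (3.18). After crush, Mrgprd and Lpar3 still led, with 28.0 ± 4.36 and 14.9 ± 1.39 under vehicle. By this length Il31ra moved from the rank of 8 to 3 in both treatments. It was at 10.4 ± 1.46 per kilobase in vehicle crush and 9.09 ± 0.14 in IPA crush libraries. Mrgprx1 came after Il31ra and Mrgpre in both crush groups, but under vehicle its range overlapped that of Mrgpra3, and each of Mrgpra3, Lpar5 and Mrgprb4 overlapped the next in order. Under IPA crush only Lpar5 and Mrgpra3 overlapped. Mrgprb5 was the lowest after crush at 1.43 ± 0.06 and 1.35 ± 0.25. The ranks depend on the length used. Il31ra has 8 transcripts, whose exons together cover 5673 bases, against 3680 in the longest. Per kilobase of that greater length Il31ra would be lower, and ranks on it were not taken.

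The second question was whether IPA changed the receptors. With the nerve intact, 0 of 10 were called between IPA and vehicle, as were 0% of the 15603 genes. An unadjusted p under 0.05 (limma) was found for 0 of 10, beside 1902 of the 15603 genes. After crush 0 of 10 were called, again with 0% of all genes. There, beside 1258 of the 15603 genes, 1 of 10 had an unadjusted p under 0.05 (limma). That was Lpar3, at 36.7 ± 3.43 in vehicle crush and 41.1 ± 2.94 in IPA crush libraries (SD, n = 3), a log2 difference of 0.16 ± 0.07 (SE, limma adjusted p = 0.604). edgeR and DESeq2 on the recovered reads also called 0 of 10 in both comparisons. The 95% intervals of the difference reached from 0.602-fold (Cysltr2) to 1.30-fold (Mrgprb5) with the nerve intact and from 0.728-fold (Cysltr2) to 1.30-fold (Mrgprx1) after crush. The precision differed by gene, with an SE of 0.05 (Mrgpre) to 0.17 (Cysltr2) on the log2 scale.

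**Figure D3:**
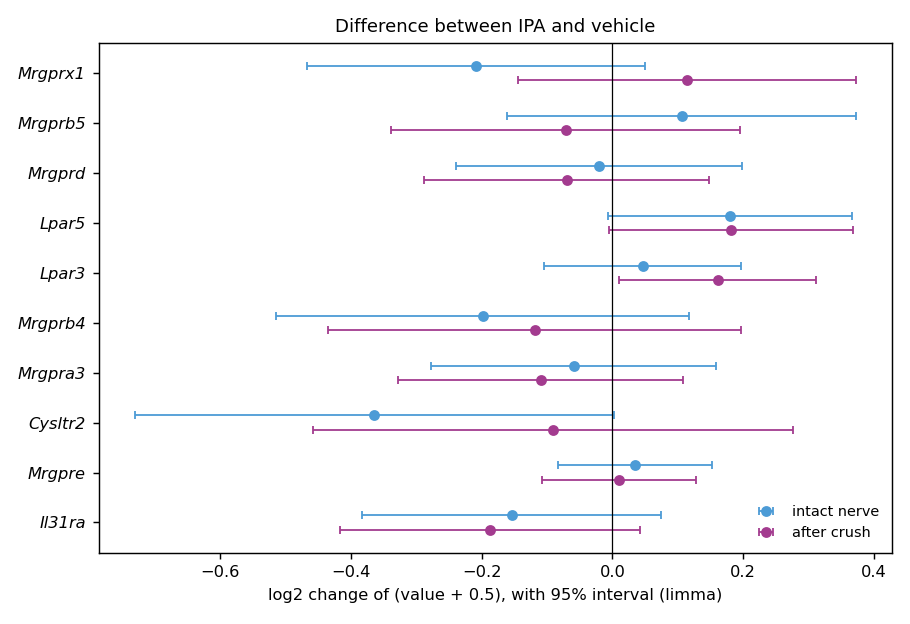
Log2 difference of (value + 0.5) between IPA and vehicle, IPA minus vehicle, with the nerve intact (blue) and after crush (purple). Points are limma estimates and bars their 95% intervals (3 libraries per group). All intervals include 0 except that of Lpar3 after crush, which starts at 0.01 before adjustment over genes.

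The 3 IPA libraries did not overlap the 3 vehicle libraries for Cysltr2, which was lower, and Lpar5, which was higher, among intact mice, where 25.2% of all tested genes had groups without overlap. Cysltr2 was 4.23 ± 0.47 under IPA and 5.59 ± 0.65 under vehicle (SD, n = 3), a log2 difference of -0.36 ± 0.17 (SE, limma adjusted p = 0.408). Lpar5 was 11.9 ± 0.53 under IPA and 10.5 ± 0.63 under vehicle (log2 difference 0.18 ± 0.09, limma adjusted p = 0.409). After crush, Il31ra alone of the 10 did not overlap, where 11.4% of tested genes had groups without overlap: 33.5 ± 0.52 under IPA and 38.4 ± 5.39 under vehicle (log2 difference -0.19 ± 0.11, limma adjusted p = 0.651). No receptor was called for the interaction of IPA and crush (0 of 10, with 0% of all genes). An unadjusted p under 0.05 (limma) was found for 0 of 10, beside 327 of the 15603 genes. For this interaction edgeR and DESeq2 also called 0 of 10.

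Most other Mrgpr genes had few reads. Of 14 other family members in the table, 5 passed the filter and Mrgprb3 was at 0 in every library. Under vehicle, 1 of the 5 rose and 1 fell after crush, beside 23.6% and 24.4% of all genes. Mrgprf, which lies 5.28 kb from Mrgprd, rose from 3.61 ± 0.43 to 5.08 ± 0.85 (SD, n = 3; log2 change 0.44 ± 0.12, limma adjusted p = 0.00857), so these neighbours moved in opposite directions. Mas1 fell (-0.32 ± 0.12, limma adjusted p = 0.0421), but it reached 0.5 only in intact libraries and passed the filter through them. Mrgpra2b, close to Mrgpra3 on the chromosome, was 5.75 ± 0.40 in vehicle and 4.61 ± 1.18 in vehicle crush libraries (-0.32 ± 0.14, limma adjusted p = 0.0789), and Mrgpra2a changed by -0.36 ± 0.15 (adjusted p = 0.0667). The values of Mrgpra2a and Mrgpra2b are uncertain, since 80.4% and 78.7% of their 75-base stretches occur in another gene. For the 10 receptors that share was at most 0.723% (Mrgprx1). Under IPA 0 of the 5 were called by limma, beside 43.6% of all tested genes, and Mrgprf changed by 0.26 ± 0.12 (adjusted p = 0.0978).

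The genes known to work in the Mrgprd class moved as Mrgprd did for the most part. Of 15, all tested, 11 fell and 2 rose under vehicle, beside 24.4% and 23.6% of all tested genes. Likewise 11 fell and 2 rose under IPA, beside 22.5% and 21.2%. Whether the list fell more than other neuronal genes was not tested. The median log2 changes of the list were -0.68 and -0.60, beside -0.67 and -0.63 for the 10 receptors. Prkcq, a protein kinase C, fell from 96.1 ± 2.09 to 51.4 ± 6.62 under vehicle (SD, n = 3; -0.90 ± 0.07, limma adjusted p = 2.17e-07). The sodium channel gene Scn11a fell from 438.5 ± 21.7 to 270.1 ± 25.8 (-0.70 ± 0.06), and Gfra2, the neurturin receptor, from 183.1 ± 13.7 to 113.7 ± 4.83 (-0.68 ± 0.06). Ret, the signalling partner of Gfra2, rose from 887 ± 18.4 to 1182 ± 13.8 (0.41 ± 0.04, limma adjusted p = 1.02e-06). P2rx3, named after its value was seen, also rose, from 194.8 ± 13.4 to 235.6 ± 22.8 (0.27 ± 0.06, limma adjusted p = 0.00317). Runx1, which specifies these neurons and was added after its value was seen, fell from 56.7 ± 3.93 to 45.3 ± 2.78 (-0.32 ± 0.06, limma adjusted p = 0.000895).

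Receptors and signal carriers that work with the itch receptors were mixed. Of 22 in the list, 21 were tested, and 7 rose and 8 fell under vehicle (8 and 7 under IPA), with a median of 0.01 under vehicle. Over all tested genes 23.6% rose and 24.4% fell under vehicle, and 21.2% and 22.5% under IPA. F2rl1, named after its value was seen, is among those that rose. It passed the filter only through the crush libraries, so its rise does not support a direction of the list. Il13ra1 and Il4ra, chains of the receptors for the itch cytokines interleukin-13 and interleukin-4, rose, as Il31ra did. Which cells these rises came from was not tested, and macrophage markers also rose. Il13ra1 rose from 8.35 ± 0.43 to 26.3 ± 2.94 (SD, n = 3; 1.59 ± 0.09, limma adjusted p = 4.3e-09) and Il4ra from 41.9 ± 2.63 to 103.3 ± 9.82 (1.29 ± 0.07). Osmr, the second chain of the interleukin-31 receptor and added after its value was seen, was 42.6 ± 5.35 in vehicle and 40.3 ± 4.58 in vehicle crush libraries (-0.08 ± 0.09, limma adjusted p = 0.50). Plcb3, the phospholipase downstream of many Mrgpr receptors, fell from 495 ± 17.3 to 293 ± 11.1 (-0.76 ± 0.06), and the serotonin receptor gene Htr7 from 18.0 ± 0.96 to 8.40 ± 0.96 (-1.06 ± 0.09, limma adjusted p = 3e-07).

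The transmitter list also split. Of 7 genes, 3 rose and 3 fell under vehicle, beside 23.6% and 24.4% of all tested genes. Under IPA 4 rose and 3 fell, beside 21.2% and 22.5%. Nts (neurotensin) rose from 4.79 ± 0.79 to 80.7 ± 1.49 under vehicle (SD, n = 3; 3.95 ± 0.11, limma adjusted p = 3.07e-12), and Grp (gastrin-releasing peptide) from 0.0182 ± 0.0190, close to no reads, to 3.34 ± 0.48. Grp is among the genes counted as risen in both treatments. It passed the filter only through the crush libraries, so its rise does not support a direction of the list. Nmb (neuromedin B) fell from 45.2 ± 4.07 to 30.2 ± 0.93 and Tac1 (substance P) from 191.3 ± 9.35 to 132.3 ± 15.3. Nppb and Sst, the peptides of the Il31ra class, were added after their values were seen and went opposite ways. Nppb rose from 5.30 ± 0.30 to 7.03 ± 0.97 (0.37 ± 0.10, limma adjusted p = 0.0059), while Sst fell from 4.13 ± 0.47 to 2.27 ± 0.42 (-0.75 ± 0.17, limma adjusted p = 0.00208).

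**Figure D4:**
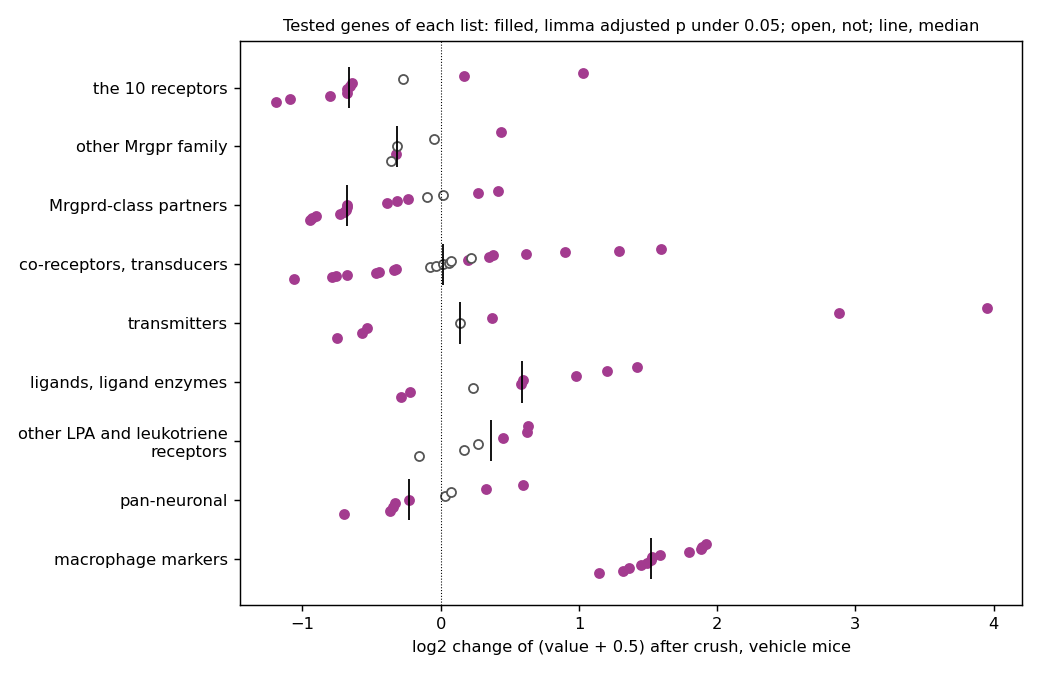
Log2 change of (value + 0.5) after crush in vehicle mice for each tested gene of the lists (rows). Filled points had a limma adjusted p under 0.05, open points did not, and the vertical line is the median. Mrgprd-class partners lie mostly left of 0 like the receptors, and all 12 macrophage markers lie to the right.

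Of 14 genes for ligands and the enzymes that make them, 8 were tested, and 5 rose and 2 fell in each treatment. The shares over all tested genes were 23.6% higher and 24.4% lower under vehicle, and 21.2% and 22.5% under IPA. Il31, the ligand of Il31ra, was at 0 in all libraries. Hdc, which makes histamine, rose from 1.63 ± 0.16 to 5.21 ± 0.68 under vehicle (SD, n = 3; 1.42 ± 0.11, limma adjusted p = 1.47e-07). Alox5ap and Alox5, which start the synthesis of the leukotrienes that Cysltr2 binds, rose by 1.20 ± 0.14 and 0.98 ± 0.20 on the log2 scale, and the alarmin Il33 by 0.58 ± 0.14. Of the 6 other LPA and leukotriene receptors, 3 rose and 0 fell under vehicle (3 and 1 under IPA), beside the same shares of all tested genes. Those that rose under vehicle were Lpar2 (0.334 ± 0.108 to 0.789 ± 0.108), Lpar6 (1.13 ± 0.33 to 1.97 ± 0.06) and Cysltr1 (0.498 ± 0.054 to 0.860 ± 0.041). Lpar1, another LPA receptor, was 61.1 ± 5.02 in vehicle and 54.7 ± 3.43 in vehicle crush libraries (-0.16 ± 0.07, limma adjusted p = 0.0687), and it was the one that fell under IPA (-0.24 ± 0.07, limma adjusted p = 0.00998). Lpar2 passed the filter on low values only through its crush libraries. Cysltr1 passed it mainly through them, as did Ltb4r1, named after its value was seen, which rose under IPA. The rises of Lpar2, Cysltr1 and Ltb4r1 therefore do not support a direction of the list.

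Markers of other cells moved with crush as well. For all tested genes the shares were 23.6% higher and 24.4% lower under vehicle, and 21.2% and 22.5% under IPA. All 12 macrophage markers rose under vehicle (11 of 12 under IPA), and their summed value was 48.1 to 72.1 over the intact libraries (vehicle 49.1 to 63.1) and 173 to 200 over the crush libraries (vehicle crush 176 to 194). Mrc1, a macrophage scavenger receptor, rose from 7.18 ± 0.70 to 26.1 ± 1.60 (SD, n = 3). Of 9 neuronal markers, 2 rose and 5 fell in each treatment: Snap25 fell from 1312 ± 14.8 to 807 ± 38.6 and Tubb3 rose from 2703 ± 211 to 4085 ± 376 under vehicle. Of the satellite glial markers, 2 of 8 rose under vehicle, among them Glul from 291.6 ± 27.4 to 520.7 ± 32.7; under IPA 2 rose and 2 fell. The 8 mast cell markers, 5 of them tested, summed to 75.2 to 82.3 in intact and 59.7 to 63.7 in crush libraries, mostly through Kit, which fell in both treatments (-0.31 ± 0.05 under vehicle). The other 4 tested were not called in either treatment, so the sums follow Kit and do not show a change of mast cells. Of 8 endothelial markers 1 rose in each treatment, Pecam1 under vehicle and Cldn5 under IPA, and the sums were 95.4 to 109 in intact and 101 to 116 in crush libraries. Of 2 tested lymphoid markers Cd79a fell in both treatments, and the 8 summed to 1.75 to 4.27. Of 7 tested skeletal muscle markers limma called 0, but their sum ran from 35.4 to 116 in intact and from 48.9 to 297 in crush libraries. No marker was at 0 in all libraries of a group except the muscle gene Tnnc2 in IPA. The part of these shifts in the changes of the 10 receptors was not tested.

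Vehicle crush replicate 1, in which all 10 receptors were highest, had the lowest neuronal sum of its group (9711, against 10817 and 10926) and a muscle sum of 297 (86.8 and 296.0 in the others). The part of these sums in its high receptor values was not tested. Without it, the log2 changes after crush under vehicle were -0.92 ± 0.08 for Mrgprd, -0.77 ± 0.09 for Mrgpra3 and -1.33 ± 0.10 for Mrgprx1, each larger in size than with it. The interaction of Mrgprx1 was then 0.46 ± 0.14 (limma adjusted p = 0.347) and that of Cysltr2 0.52 ± 0.16 (adjusted p = 0.347), still not called.

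Other genes followed the same pattern over the 12 libraries closely. The highest Pearson correlations with Mrgprd, on log2(value + 0.5), were those of Tln2 (0.989), Rims1 (0.989), Arsb (0.988), Scn10a (0.988) and Dgkk (0.988), and 0 of the other receptors were among its 100 most similar genes. For Mrgpra3 they were Ttc21b (0.993), AK039581 (0.989), Osbpl2 (0.986), Slc35f3 (0.985) and Pip4k2a (0.985), with 1 other receptor, Mrgprd, among the 100. For Il31ra they were Zeb1 (0.996), Sh3glb1 (0.993), Arhgap42 (0.992), A830010M20Rik (0.992) and Mfap3l (0.991), with 0 other receptors. The 12 libraries fall into an intact and a crush cluster and share their libraries, depth and composition across genes, so these values describe mainly that split.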

How the data were processed

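The 12 DRG libraries were directional, made from poly(A) RNA (integrity number over 8.0) and read as pairs of 75 bases, per the labels' protocols. Per the submitters' processing notes, the build was mm10 and the tools were FastQC 0.10.1, R 3.5.0, STAR 2.7.0, limma 3.38.3 and edgeR 3.24.3, in no stated role or order. Not given in the sources used here are the read counter, its strand setting and its annotation. The table the authors deposited is named for FPKM, but its values behave as CPM scaled by library: 100% are whole multiples of 1 step per library (tolerance 1e-06), which returned 40938034 to 62501969 reads per library. The design had assumed FPKM, and its limma test was kept because it suits both units.

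All 12 libraries entered 1 limma-trend model (limma 3.58.1, R 4.3.3; 8 residual degrees of freedom) of log2(value + 0.5), with at least 0.5 in at least 3 libraries and Benjamini-Hochberg adjustment over 15603 genes at 0.05. It was tested on simulated data. Alternatives were filters of any value above 0 (called no filter) and of 1, pseudocounts of 0.1 and 1, scaling by median of ratios, edgeR 4.0.16 and DESeq2 1.42.0 on recovered reads, the replicate number as a block, a fit to the 6 libraries of 1 contrast, and the loss of each library in turn. The labels call the triplicates biological, each a pool of its own. The fixed contrasts were injury under each treatment, IPA in each injury state, and their interaction.

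The 10 receptors and the lists (6 of related genes, 7 of cell markers) were chosen with earlier results of these data known. Named beside the receptors were up to 4 tested genes per list with the smallest p after crush under vehicle, and the 5 most similar genes of 3 receptors; other names are marked. Some genes are in 2 lists. Adgre1 was matched by its Ensembl ID. Coordinates are mm10, from GENCODE M21; promoters are from RefSeq, GRCm38.p6.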

Additional observations from a re-analysis of the deposited data

How the results depend on the processing

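The count of called receptors stayed at 8 to 9 of 10 in both crush comparisons and at 0 in the others under every alternative run. Of 1040 values of single receptors under alternatives, 990 kept direction and side of the threshold, 11 lost their call (all Mrgpre), 1 gained it (Cysltr2), and 38 that were called in neither analysis changed sign, at sizes up to 0.15. The difference between Mrgprd and Mrgpra3 was -0.12 with a pseudocount of 0.1 (exact permutation adjusted p = 0.06) and -0.19 to -0.11 with a library left out; those tests have fewer arrangements. The other 2 pairs kept their call throughout, which the separation of their single genes had fixed in advance for the permutation tests. With the replicate number as a block, 9 and 9 receptors were called after crush, and the Mrgprd to Mrgpra3 difference was -0.15 (limma adjusted p = 0.0424); the block changed no call. The numbers do not pair the libraries: same-numbered libraries of different groups correlated at -0.25 to 0.29 (median -0.04), and 3 of 12 correlated best with their own number. Over all genes, DESeq2 called 1 higher and 2 lower with IPA in intact mice, 9 and 6 after crush, and 0 and 3 for the interaction, where limma and edgeR called 0; none is among the receptors. Mrgprb5, with 76 to 117 reads per crush library, had the fewest reads of the 10 and so the largest relative counting error.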
